A study of Mus musculus with 3 samples.

Results

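The cathepsins are the acid proteases of the lysosome. The 10 genes Ctsa, Ctsb, Ctsc, Ctsd, Ctsh, Ctsk, Ctsl, Ctss, Ctsw and Ctsz were taken as listed members of the family, and all 10 were found among the 31053 genes of the count tables. Their UMIs (unique molecular identifiers, 1 per captured RNA molecule) were counted in the 5650 cells that the authors kept, in each tumor and in each class of cells defined by marker genes.

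The cells came from 3 whole fresh neuroblastomas, each from a different TH-MYCN mouse, a model in which the tyrosine hydroxylase promoter drives MYCN in cells of the sympathetic lineage. All 3 mice were heterozygous for the transgene and were 62, 79 and 63 days old for tumors 1, 2 and 3. Tumors were dissociated with Liberase and DNase and sequenced with the 10x Genomics 3' v3.1 chemistry. There was no untreated or tumor-free group, so the comparisons were between classes of cells, with the tumor as the replicate.

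Most cathepsins are made as inactive proenzymes, tagged with mannose 6-phosphate and activated by cleavage in the acid lysosome. Ctsb, Ctsc, Ctsh, Ctsk, Ctsl, Ctss, Ctsw and Ctsz are cysteine proteases of the papain type, Ctsd is an aspartic protease and Ctsa is a serine carboxypeptidase that also stabilises neuraminidase and β-galactosidase. Macrophages use them to digest engulfed material, antigen-presenting cells use Ctss and Ctsl to degrade the invariant chain of class II molecules, and tumor-associated macrophages are known for secreting several of them.

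All 10 genes are protein coding and lie on 7 chromosomes of GRCm38. Ctsk (chr3:95499256-95509362) and Ctss (chr3:95526786-95556403) are neighbours on the plus strand with 17423 bases between them. Ctsa lies at chr2:164832873-164841032 and Ctsz at chr2:174427493-174439039, Ctsb at chr14:63122462-63145923, Ctsc at chr7:88278085-88310888, Ctsd at chr7:142375911-142388038, Ctsh at chr9:90054152-90076089, Ctsl at chr13:64359337-64370890 and Ctsw at chr19:5465043-5468507. Ctsd, Ctsl, Ctsw and Ctsz are on the minus strand. On the opposite strand, Ctsa overlaps Neurl2 and Pltp, Ctsb overlaps Fdft1, Ctsc overlaps Gm26522, Ctsl overlaps Gm47123, Ctsw overlaps Fibp and Ctsz overlaps Nelfcd. On the same strand, Ctsd overlaps Gm49369, Ctsl overlaps Gm49230 and Ctss overlaps Hmgb1-ps5. Whether reads were counted by strand is not given in the sources used here, so these levels may hold reads of the partner gene.

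Promoters of 4 members are shown because they hold short motifs of regulators known from lysosomal genes or myeloid cells. The RefSeq promoter table (GRCm38.p6, 250 bases before to 50 bases after the start) held 7 of the 10 members, with no entry for Ctsb, Ctsh and Ctsw. Capitals mark TCACGTGA, the core of the CLEAR element bound by TFEB, in Ctsd and Ctsa, and ACTTCCTC, the reverse complement of the PU.1-type motif GAGGAAGT, in Ctss and Ctsc.
Ctsd, chr7:142387888-142387957, minus strand: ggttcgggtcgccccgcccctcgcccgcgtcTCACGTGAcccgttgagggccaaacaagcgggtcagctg
Ctsa, chr2:164833715-164833784, plus strand: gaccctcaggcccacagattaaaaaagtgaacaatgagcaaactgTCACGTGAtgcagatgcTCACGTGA
Ctss, chr3:95526726-95526795, plus strand: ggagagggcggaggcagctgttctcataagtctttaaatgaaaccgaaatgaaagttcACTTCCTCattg
Ctsc, chr7:88277905-88277974, plus strand: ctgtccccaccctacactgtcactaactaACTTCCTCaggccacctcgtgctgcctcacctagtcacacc

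On either strand, TCACGTGA was present in 0.974% of the 32851 promoters of the same length, and in 2 of the 7 members. It began 99 bases before the start of Ctsd, and 13 bases before and at base 5 after that of Ctsa. The shorter E-box CACGTG, which lies inside TCACGTGA, was present in 7.15% of promoters and in 3 members (Ctsa, Ctsd and Ctsl). The motif GAGGAAGT was present in 3.2% of promoters, beginning 2 bases before the start of Ctss and 151 bases before that of Ctsc. These are matches of letters and not measured binding.

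Tumor 1 contributed 1914 kept cells with a median of 4282.5 UMIs, tumor 2 contributed 1221 cells with a median of 1594, and tumor 3 contributed 2515 cells with a median of 1816. Kept barcodes shared between libraries numbered 3 for tumors 1 and 2, 0 for tumors 1 and 3 and 1 for tumors 2 and 3. Cells were clustered with the cathepsins held out of the genes used, and clusters were named from fixed markers, none of which was a cathepsin. Sums of at least 10 cells were obtained in 12 classes and 27 combinations of class and tumor. Tumor 1 stood apart in its makeup, with 584 macrophage-like and 158 tumor-like cells, against 74 and 636 in tumor 2 and 129 and 1524 in tumor 3. The 8 tumor markers, which included Th, Dbh, Hand2 and Chga, summed to 23.4 CPM in the macrophage-like cells of tumor 1, where 6 were detected and Dbh and Chga were at 0. In tumors 2 and 3 all 8 were detected there, at 443 and 639 CPM, which was 18.6% and 26.0% of the level in the tumor-like cells of the same tumor. Tumor markers were thus measured in other classes of tumors 2 and 3, including the T cell-like cells of tumor 3, where they reached 75.2% of the tumor-like level. Their part in the differences described here was not tested.

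Taken over all kept cells, the 10 members gave between 168 UMIs (Ctsw) and 27177 UMIs (Ctsb). Macrophage-like cells held most of the UMIs of Ctsb, with 78.5%, 87.2% and 72.7% in tumors 1, 2 and 3, although they were 30.5%, 6.06% and 5.13% of the kept cells. The same cells held 81.3%, 83.3% and 60.9% of the UMIs of Ctsd. CAF-like cells (cancer-associated fibroblasts) were 2.51%, 0.737% and 1.07% of the cells. They held 67.7%, 66.7% and 76.2% of the UMIs of Ctsk, which numbered 251, 6 and 21 in tumors 1, 2 and 3. The tumor 2 share was 4 UMIs in 1 cell.

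The summed level of the family was highest in macrophage-like cells, at 11433 ± 4261 CPM (UMIs scaled to the total of the class in a tumor; mean ± SD, n = 3), with a range of 8806 to 16349. The mean was lowest in tumor-like cells, at 380 ± 19.2 CPM (n = 3), with a range of 368 to 402 that lay within that of erythroid-like cells (265 to 932). Plasmacytoid dendritic-like cells were second at 5603 ± 2707 CPM (n = 2), CAF-like cells had 2322 ± 947 CPM (n = 2), endothelial-like cells 1964 ± 807 CPM (n = 3) and neutrophil-like cells 1316 ± 691 CPM (n = 3). The ranges of endothelial-like and neutrophil-like cells overlapped, while those of macrophage-like cells overlapped with no other class.

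**Figure D1:**
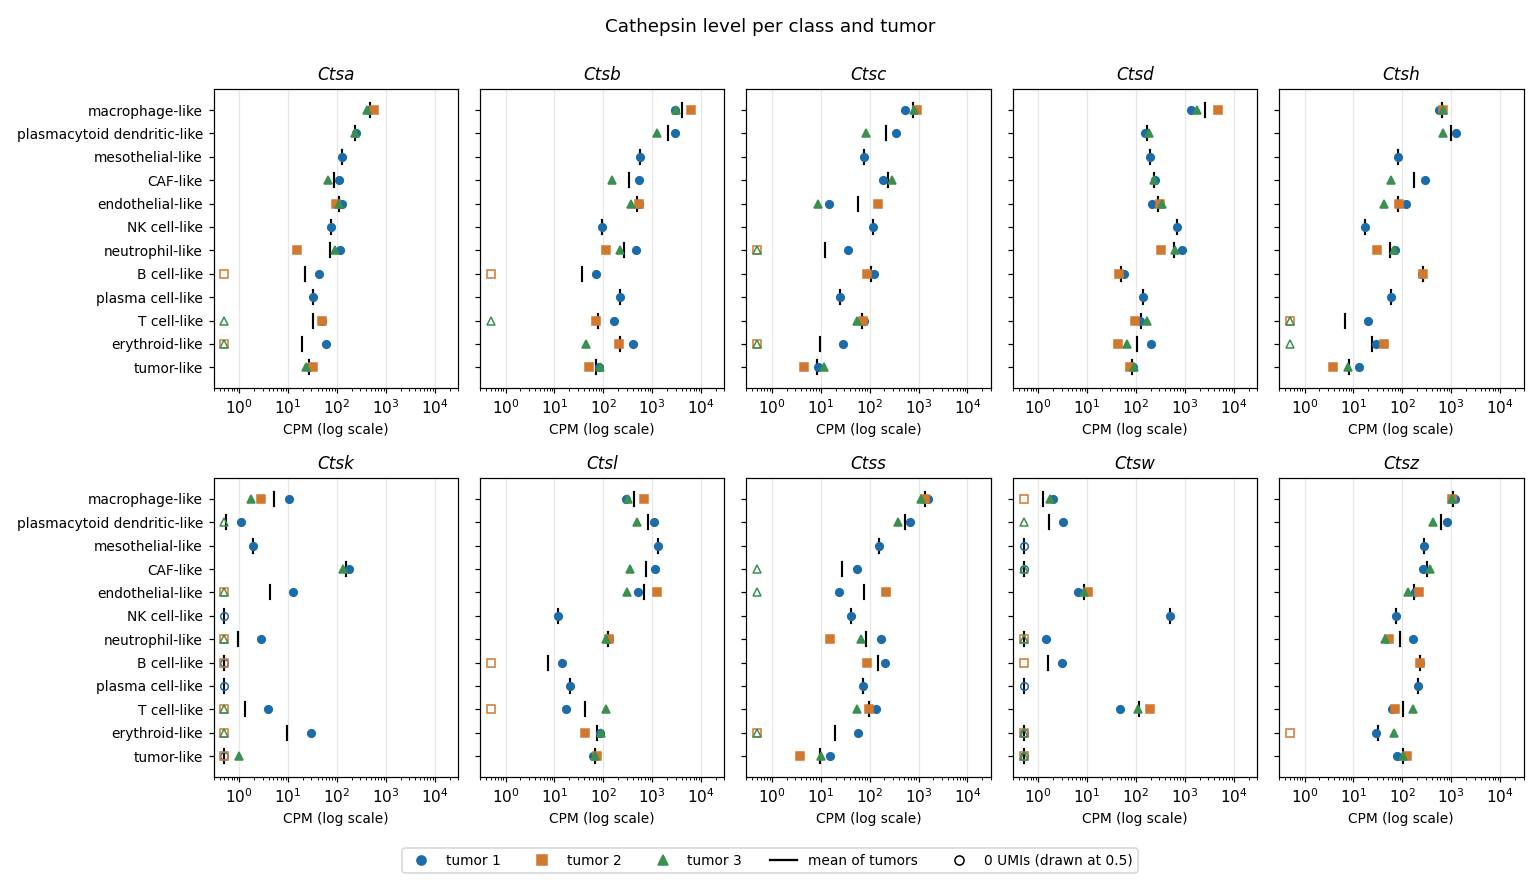
Level of each of the 10 cathepsins (CPM, log axis) in the 12 classes, with 1 point per tumor, a bar at the mean of the tumors and open symbols at 0.5 for sums with 0 UMIs. Ctsa, Ctsb, Ctsc, Ctsd, Ctss and Ctsz had their highest class mean in macrophage-like cells, while Ctsk was highest in CAF-like cells and Ctsw in NK cell-like cells.

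Macrophage-like cells carried higher levels of 8 of the 10 cathepsins than the average of the other classes, and 0 lower, in a comparison where 13.6% of the 10758 genes tested were higher and 0.26% lower (edgeR quasi-likelihood test, Benjamini-Hochberg adjusted p under 0.05). The median log2 fold change of the 10 members was 3.27, against 0.44 over all genes tested. Over all genes edgeR called 1463 higher and 28 lower, and DESeq2 557 and 89. Folds here are against the mean of the other classes on the log scale, with each class counted equally, and p-values measure the spread between the sums of these 3 tumors.

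Ctsb, an endo- and exopeptidase of broad specificity, was measured at 2929, 6283 and 3037 CPM in the macrophage-like cells of tumors 1, 2 and 3. It was measured at 79.6, 50.04 and 85.7 CPM in tumor-like cells, so the ranges were far apart and the ratio was 36.8, 126 and 35.4 in the 3 tumors. Against all other classes its log2 fold change was 4.18 ± 0.50 (SE; adjusted p = 2.5e-07), and this call was kept under each of the alternatives tried. At an equal depth of 500 UMIs per cell, 60.4% of macrophage-like cells of tumor 1 had a Ctsb UMI (exact 95% interval 56.3 to 64.4%), with 51.4% and 64.3% in tumors 2 and 3. The shares in tumor-like cells were 5.06%, 3.14% and 4.66%, and before thinning the macrophage-like shares were 99.7%, 87.8% and 93.8%. Intervals cover counting error only.

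Ctss, which trims the invariant chain and stays active at neutral pH, was at 1534, 1384 and 1112 CPM in macrophage-like cells. In tumor-like cells it was at 15.5, 3.73 and 9.89 CPM, the lowest class mean of this gene, and the log2 fold change in macrophage-like cells was 4.38 ± 0.58 (adjusted p = 1.1e-06). Ctsz, a carboxypeptidase with an integrin-binding prosegment, varied least between tumors in macrophage-like cells, at 1167, 1016 and 1040 CPM (mean 1074 ± 81.1, n = 3; log2 fold change 2.98 ± 0.38, adjusted p = 6.5e-07).

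Ctsc, the dipeptidyl peptidase that activates granule serine proteases, was at 536, 930 and 809 CPM in macrophage-like cells and at 8.84, 4.48 and 11.5 CPM in tumor-like cells. Ctsa was at 454, 570 and 408 CPM in macrophage-like cells against 26.5, 32.1 and 23.1 CPM in tumor-like cells. For both genes the macrophage-like range lay above that of all other classes, with log2 fold changes of 3.93 ± 0.49 and 3.04 ± 0.42.

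Ctsh, an aminopeptidase, was at 570, 689 and 674 CPM in macrophage-like cells, and Ctsl, an endopeptidase active in the endosomes of epithelial and mesenchymal cells, was at 292, 667 and 312 CPM. Both were higher than in the average of other classes (log2 fold changes 3.50 ± 0.42 and 2.03 ± 0.44), but neither was highest there. The call for Ctsl was lost without tumor 2 (log2 fold change 1.53). Ctsk, the collagen-degrading protease of osteoclasts, had 63 UMIs in the macrophage-like cells of tumor 1 (10.6 CPM) and 1 UMI in each of tumors 2 and 3. It missed the threshold (log2 fold change 2.07 ± 0.77, adjusted p = 0.077) and passed it with the tumor as a block (adjusted p = 0.015).

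**Figure D2:**
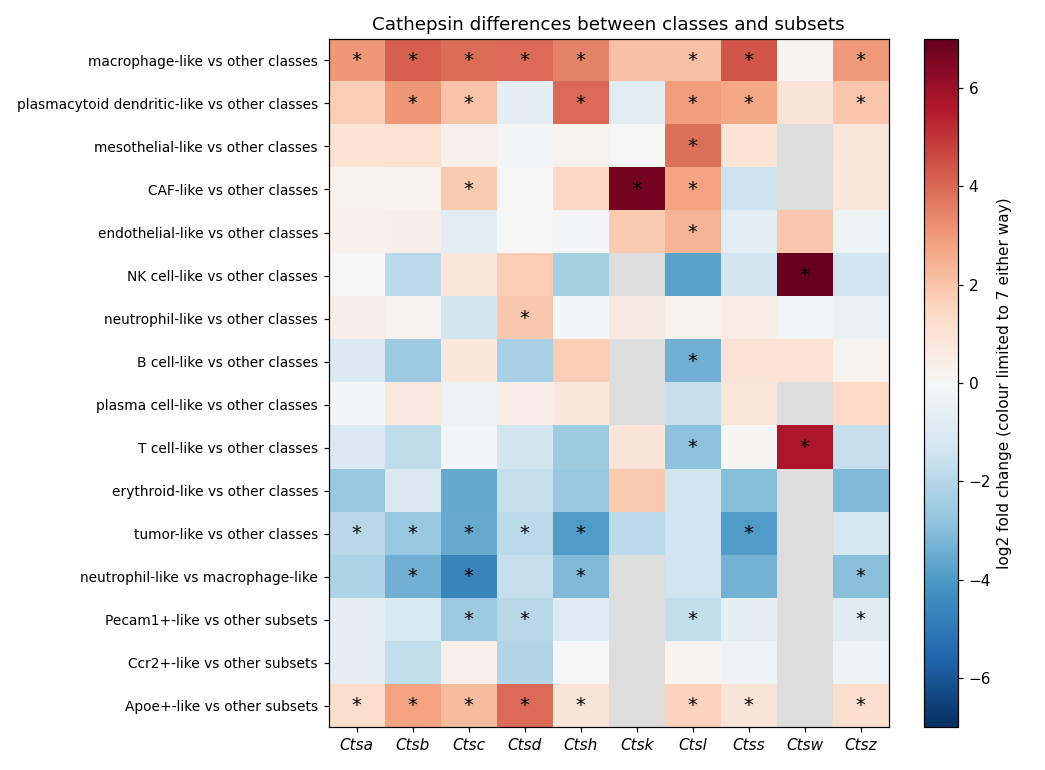
Log2 fold changes of the 10 cathepsins in 16 comparisons, red for higher and blue for lower, with asterisks where the edgeR adjusted p was under 0.05 and grey where the class held 0 UMIs or the gene was not tested. The macrophage-like row holds 8 red asterisks and the tumor-like row 6 blue ones, and Ctsl is starred in mesothelial-like, CAF-like and endothelial-like cells.

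Other genes of the lysosome were higher in macrophage-like cells along with the cathepsins. Of 20 lysosomal hydrolases tested, 17 were higher and 0 lower, with a median log2 fold change of 2.50. They included Acp5, the tartrate-resistant phosphatase (4.33), the progranulin gene Grn (3.90) and Hexa, a subunit of hexosaminidase A (3.41). Of 9 lysosomal membrane genes 7 were higher, among them Cd63 (3.35) and Lamp1 (2.77). Of 8 sorting and maturation genes 4 were higher, led by Lgmn (4.02), the legumain that cleaves cathepsins into their mature chains, and Psap (3.77), the precursor of the saposins. Of 7 cathepsin inhibitors tested 3 were higher, including the secreted inhibitor cystatin C, Cst3 (2.93), and the cytosolic cystatin B, Cstb (2.14). All 6 class II genes were higher, 1 of 2 genes for CLEAR-binding factors was, and 0 of 4 granule proteases and 0 of 2 further cathepsins passed the test in either direction.

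The family differed within the macrophage-like cells. These were split from fixed markers into Pecam1+-like (markers such as Cd300e and Ace), Ccr2+-like (Ly6c2 and Vcan) and Apoe+-like subsets (C1qa and Mrc1). They held 272, 203 and 91 cells in tumor 1, 23, 10 and 23 in tumor 2, and 43, 16 and 50 in tumor 3. A further 18, 18 and 20 cells of tumors 1, 2 and 3 stayed unnamed and out of the tests. In Apoe+-like cells all 8 members tested were higher than in the other named subsets, where 6.82% of 3121 genes were higher and 4.07% lower, and the median log2 fold change was 1.42 against 0.01 over all genes. Ctsk and Ctsw were too low to be tested. Over all genes 213 were higher and 127 lower, or 183 and 227 without TMM factors, where the median of all genes was -0.17.

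Ctsd, the main aspartic protease of the lysosome, separated the subsets most. It was measured at 4749, 10826 and 3818 CPM in Apoe+-like cells of tumors 1, 2 and 3. The same gene was at 232, 593 and 610 CPM in Ccr2+-like cells and at 530, 506 and 464 CPM in Pecam1+-like cells. The Apoe+-like range was far above both others, which overlapped each other, and the ratio of Apoe+-like to Ccr2+-like cells was 20.5, 18.3 and 6.25. The log2 fold change against the other subsets was 3.98 ± 0.39 (adjusted p = 2.2e-04). Ctsd made up 24.2%, 33.4% and 23.7% of the cathepsin UMIs of Apoe+-like cells, against 4.39%, 9.65% and 9.84% in Ccr2+-like cells.

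Ctsb followed, with 7138, 13820 and 6124 CPM in Apoe+-like cells, 1136, 1185 and 1390 CPM in Ccr2+-like cells and 2450, 1447 and 1351 CPM in Pecam1+-like cells (log2 fold change 2.82 ± 0.32, adjusted p = 3.8e-04). Ctsc was at 921, 1912 and 1507 CPM in Apoe+-like cells, 657, 759 and 678 CPM in Ccr2+-like cells and 219, 121 and 202 CPM in Pecam1+-like cells (log2 fold change 2.19 ± 0.28). For Ctsc the 3 subsets had separate ranges, in the order Apoe+-like, Ccr2+-like, Pecam1+-like.

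The other 5 members differed less. In Apoe+-like cells the log2 fold change was 1.60 for Ctsl, 1.25 for Ctsa, 1.19 for Ctsz, 0.92 for Ctss and 0.91 for Ctsh. Ctss was at 2284, 1994 and 1525 CPM in Apoe+-like cells, just above the highest value of the other subsets, which was 1436 CPM in the Pecam1+-like cells of tumor 1. Ctsh was at 1075, 592 and 640 CPM in Apoe+-like cells and at 530, 450 and 678 CPM in Ccr2+-like cells, so these ranges overlapped. In the unnamed cells Ctsh was at 616, 1199 and 1096 CPM, above the Apoe+-like value in tumors 2 and 3, and Ctsl was at 431, 930 and 253 CPM, above the Apoe+-like 789 CPM in tumor 2. The calls were 4 of 8 without tumor 2 and 3 of 8 without tumor 3, and Ctsb, Ctsc and Ctsd were higher in both cases. No share over all genes is given here for these fits.

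**Figure D3:**
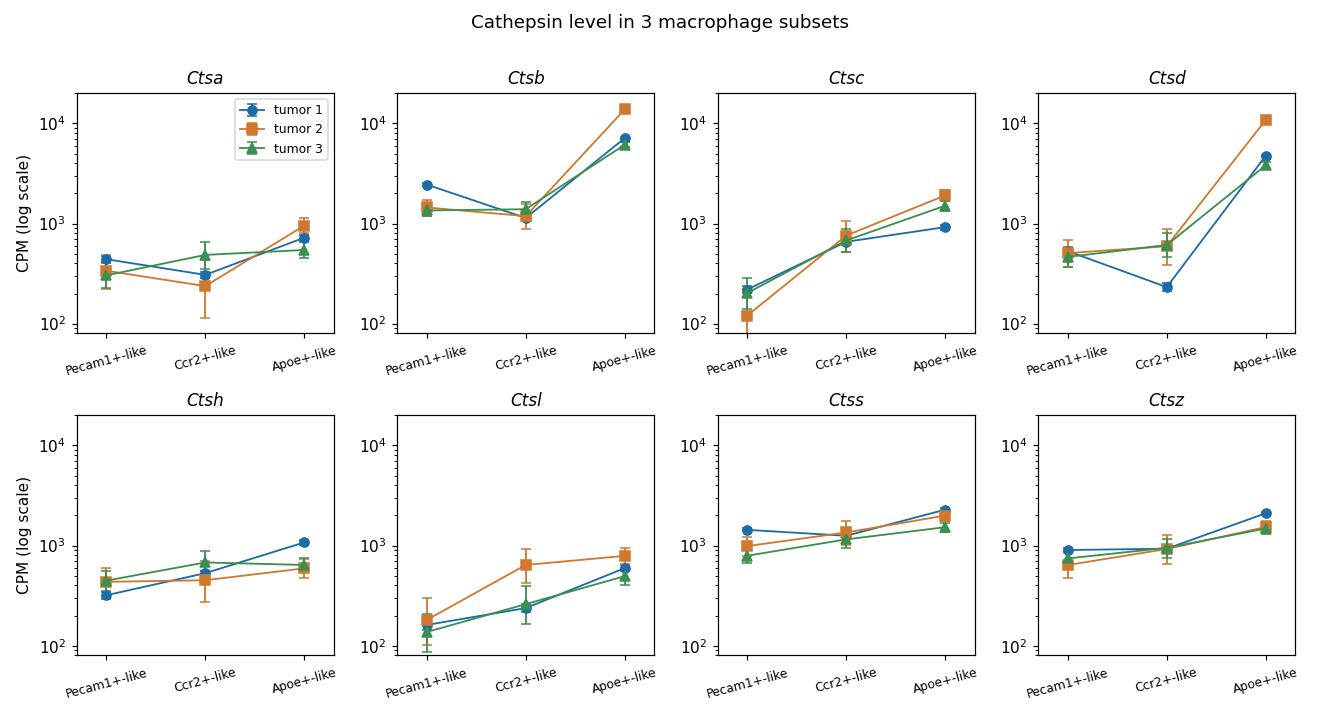
Level of the 8 cathepsins tested in the 3 named macrophage-like subsets (CPM, log axis), with 1 line per tumor and exact 95% Poisson intervals as bars. Ctsd lies between 3818 and 10826 CPM in Apoe+-like cells and between 232 and 610 CPM in the other subsets, while Ctss and Ctsh have the smallest log2 fold changes, 0.92 and 0.91.

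Subclustering had divided the Apoe+-like subset further. The first subcluster (106 cells, median of 12732.5 UMIs) had Ctsd at 4245, 10984 and 3558 CPM in tumors 1, 2 and 3. The other (58 cells, median of 1467.5 UMIs) had it at 13315, 9685 and 5245 CPM. Both lay above every Pecam1+-like and Ccr2+-like value, so the high level was present in both subclusters. They held 65, 13 and 28 cells and 26, 10 and 22 cells in tumors 1, 2 and 3. The part of depth in these levels was not tested. The 8 tumor markers summed to 38.5, 327 and 672 CPM in Apoe+-like cells, 13.6, 403 and 543 CPM in Ccr2+-like cells and 25.2, 639 and 702 CPM in Pecam1+-like cells, ranges that overlapped.

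Lysosomal genes were also higher in Apoe+-like cells, with 11 of 17 hydrolases called and 0 lower (median log2 fold change 1.35). They included the tripeptidyl peptidase gene Tpp1 (2.62), Grn (2.18) and Acp5 (2.15). The lysosomal membrane tetraspanin Cd63 had a log2 fold change of 5.43, from 47.0 to 1340.3 CPM. The authors used Cd63 in their signature of Apoe+ macrophages from these same tumors, so its difference was known in advance. The log2 fold changes of Lgmn and Psap were 2.34 and 1.89. Of the 6 class II genes 0 passed the test (median 0.96), and the difference from the hydrolases was not tested.

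In Pecam1+-like cells 4 of 8 cathepsins were lower than in the other subsets, where 2.88% of genes were lower and 3.94% higher. These were Ctsc (log2 fold change -2.57 ± 0.34), Ctsd (-1.95 ± 0.43), Ctsl (-1.72 ± 0.36) and Ctsz (-0.87 ± 0.23). Over all genes 123 were higher and 90 lower, or 224 and 79 without TMM factors (median 0.19). With the tumor as a block 7 of 8 were lower, with Ctsb, Ctsh and Ctss added, where 268 of 3121 genes were lower and 434 higher. Without tumor 2 the count was 1 and without tumor 3 it was 0, with no share over all genes given here. In Ccr2+-like cells 0 of 8 passed the edgeR test in either direction, where 0.449% of genes were higher and 0.545% lower (155 and 164 genes at an unadjusted p under 0.05). Ctsb (log2 fold change -1.74, adjusted p = 0.0502) and Ctsd (-2.03, adjusted p = 0.063) were nearest, and both passed with the tumor as a block (adjusted p = 0.0073 and 0.0048). DESeq2 also called 2 members lower there, and limma on the corrected counts called 0.

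Plasmacytoid dendritic-like cells were the second class by family level and had sums in tumors 1 and 3. Of the 10 members 6 were higher than in the other classes, where 6.66% of genes were higher and 0.093% lower, and the median log2 fold change was 1.96 against 0.21 over all genes. Ctsh was measured at 1252 and 684 CPM, the highest class mean of this gene, and its range overlapped with that of macrophage-like cells (log2 fold change 3.98 ± 0.46, adjusted p = 3.1e-07). Ctsb was at 2940 and 1223 CPM (3.02 ± 0.58), Ctsl at 1112 and 497 CPM (2.95 ± 0.48) and Ctss at 663 and 373 CPM (2.71 ± 0.69). Ctsd was at 152 and 187 CPM, below all 3 macrophage-like values, and made up 2.03% and 5.06% of the cathepsin UMIs, against 14.9% and 19.1% in macrophage-like cells of the same tumors. The 8 macrophage markers summed to 464 and 124 CPM in these cells and to 3272 to 4395 CPM in macrophage-like cells. DESeq2 called 3 members (Ctsb, Ctsh and Ctsl). The calls for Ctsc, Ctsl and Ctsz were lost without tumor 1, and Ctsa passed with the tumor as a block (log2 fold change 1.74, adjusted p = 0.0026). Of the 6 class II genes 5 were higher.

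Ctsl, a lysosomal endopeptidase, was higher in the stromal classes. It was measured at 1129 and 350 CPM in the CAF-like cells of tumors 1 and 3, at 513, 1245 and 300.3 CPM in endothelial-like cells and at 1330.2 CPM in the mesothelial-like cells of tumor 1, which had no sum in the other tumors. Tumor-like cells had 61.9, 72.4 and 67.9 CPM, below each of these. It was higher than in the other classes in mesothelial-like cells (log2 fold change 3.84 ± 0.56), CAF-like cells (2.84 ± 0.48) and endothelial-like cells (2.37 ± 0.44), as it was in plasmacytoid dendritic-like cells (2.95), where the mean exceeded that of CAF-like and endothelial-like cells. In the 3 stromal classes 10.5%, 14.1% and 11.5% of genes were higher and 0.0465%, 0.297% and 0.363% lower. Mesothelial-like and endothelial-like cells each had 1 of 10 members higher, a count near these shares. The CAF-like call was lost without tumor 1 (log2 fold change 2.35) and the endothelial-like call without tumor 2 (1.60). The ranges of CAF-like, endothelial-like and macrophage-like cells overlapped. The mesothelial-like value is 1 sum of 16 cells, so its SE holds the spread of other classes only. That cluster also carried 7 CAF markers. In tumor 1, 56.25% of its cells had at least 2 tumor markers, against 0 to 15.8% in the other named classes apart from tumor-like cells. These shares are not at equal depth, since its median was 36576.5 UMIs, against 8519 in endothelial-like cells. The tumor markers summed to 143 CPM there, below endothelial-like (202 CPM) and erythroid-like cells (408 CPM) and above the remaining named classes of tumor 1 apart from tumor-like cells. The part of these markers in the result was not tested. Ctsl took 47.4% of the cathepsin UMIs of the mesothelial-like cells, 37.8% and 21.2% in CAF-like cells and 29.5%, 43.5% and 23.2% in endothelial-like cells. Ctsb took more in the endothelial-like cells of tumors 1 and 3 (30.8% and 27.8%), and Ctsz in the CAF-like cells of tumor 3 (22.2%). In the endothelial-like cells of tumor 2, which had the most Ctsl, the macrophage markers summed to 1013 CPM, against 436 and 317 CPM in tumors 1 and 3.

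**Figure D4:**
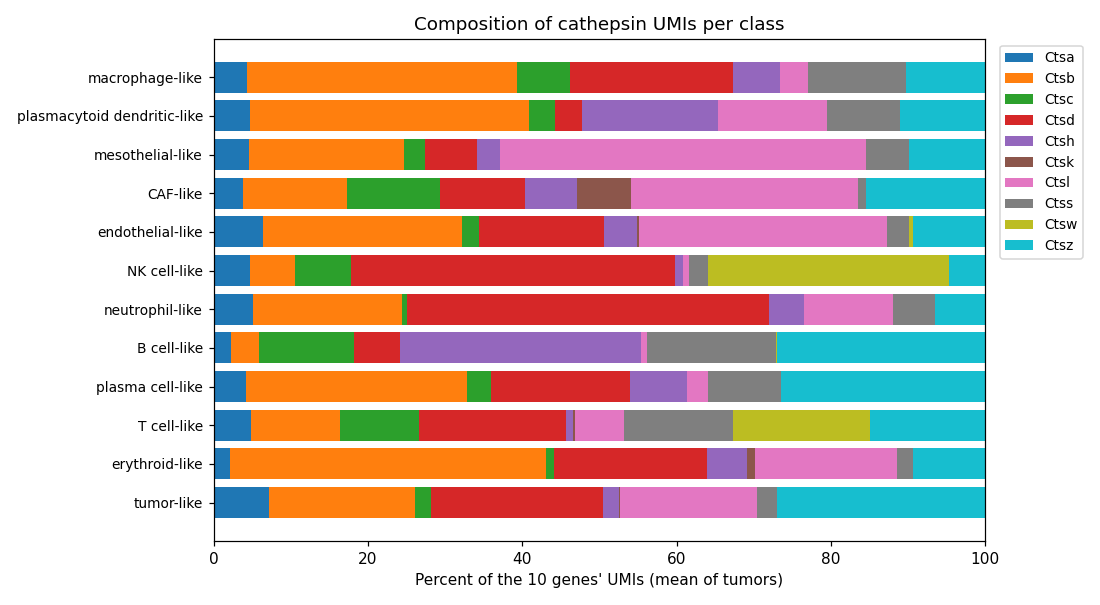
Share of each cathepsin in the UMIs of the 10 genes, for each class (mean of the tumors, percent). Ctsb is the widest segment in macrophage-like and plasmacytoid dendritic-like cells, and Ctsd in neutrophil-like and NK cell-like cells. Ctsl is the widest in mesothelial-like, CAF-like and endothelial-like cells, through tumor 1 in CAF-like and through tumor 2 in endothelial-like cells.

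Ctsk had its highest level in CAF-like cells, with 178 and 134 CPM in tumors 1 and 3 from 170 and 16 UMIs. All other sums had 29.1 CPM or less, and 0 UMIs were found in 15 of the 27 sums. The log2 fold change was 6.71 ± 0.58 (adjusted p = 4.4e-10) and depends on the prior count, because several classes held 0 UMIs. Ctsk passed the filter on low counts only through its CAF-like sums, so the test is not separate support for a higher level there. The call was kept under each alternative. Ctsc was also higher in CAF-like cells, at 190 and 292 CPM (1.85 ± 0.63, adjusted p = 0.048), a call lost without tumor 3. CAF-like cells were split into fibroblast-like and perivascular-like cells, with 22, 4 and 12 against 26, 5 and 15 cells in tumors 1, 2 and 3. Ctsl was at 2053, 1635 and 583 CPM in fibroblast-like and 239, 291 and 236 CPM in perivascular-like cells. Ctsc went the other way, at 38.5, 77.9 and 50.7 CPM in fibroblast-like and 336, 125 and 411 CPM in perivascular-like cells, from 4 and 3 UMIs in tumor 2. The difference between these groups was not tested.

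Neutrophil-like cells had 1 of 10 members above the other classes, a count near the 13.1% of all genes that were higher there (1.1% were lower). This member was Ctsd. It was at 877, 317 and 627 CPM in tumors 1, 2 and 3 (log2 fold change 1.88 ± 0.40, adjusted p = 8.8e-04; 1413 genes higher and 118 lower in all, or 1228 and 273 without TMM factors). It made up 42.9%, 47.2% and 50.9% of their cathepsin UMIs, against 14.9%, 29.4% and 19.1% in macrophage-like cells. At 500 UMIs per cell, 33.5%, 11.1% and 27.3% of neutrophil-like cells had a Ctsd UMI (81.4%, 42.6% and 54.5% before thinning), against 3.80%, 3.46% and 4.92% of tumor-like cells.

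Set directly against macrophage-like cells, neutrophil-like cells had 4 of 8 cathepsins lower, where 3.6% of 5937 genes were lower, with a median log2 fold change of -3.01. Over all genes 225 were higher and 214 lower, or 258 and 374 without TMM factors (median -0.28). Ctsb was at 471, 113 and 224 CPM (-3.38 ± 0.79), Ctsc had 36.8 CPM in tumor 1 and 0 UMIs in tumors 2 and 3 (-4.63 ± 1.006), Ctsh was at 72.2, 30.1 and 67.2 CPM (-3.07 ± 0.63) and Ctsz had a log2 fold change of -2.95 ± 0.75. Ctsd missed the threshold (-1.68 ± 0.72, adjusted p = 0.216). With the tumor as a block 7 of 8 were lower, where 475 of 5937 genes were lower and 506 higher. Ctsa, Ctss and Ctsd were added, the last with a log2 fold change of -1.76 ± 0.59 (adjusted p = 0.022). Without tumor 1 all 8 were lower, and without tumor 2 or tumor 3 the count was 0, with no share over all genes given here. The tumor markers summed to 41.0, 852 and 1075 CPM in neutrophil-like cells.

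Of 5 cathepsin inhibitors tested, 3 were higher in neutrophil-like than in macrophage-like cells, with Stfa2l1, a stefin that inhibits cysteine cathepsins, at a mean of 522 CPM against 0.168 CPM, and BC100530 of the same stefin cluster at 148 CPM against 0.0562 CPM. Stefin genes are near-identical copies, so reads can be split between them. Of 19 hydrolases 3 were lower and 0 higher, and Lgmn (-4.08) and Psap (-2.80) were lower. All 6 class II genes were lower.

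Lymphoid cells had a different member. Ctsw, also called lymphopain, a cathepsin of cytotoxic lymphocytes, was measured at 499.9 CPM (86 UMIs) in the NK cell-like cells of tumor 1, the only tumor with at least 10 such cells. T cell-like cells had 46.1, 193 and 112 CPM, from 35, 8 and 2 UMIs. The tumor markers in these T cell-like sums were at 1.15%, 33.4% and 75.2% of the tumor-like level in tumors 1, 2 and 3. The part of tumor RNA in the T cell-like values was not tested. Tumor-like cells had 0 UMIs in 4824489. At 500 UMIs per cell 32.3% of NK cell-like cells had a Ctsw UMI (exact 95% interval 16.7 to 51.4%; 93.5% before thinning), against 0 of 158, 636 and 1524 tumor-like cells, which allows shares of up to 2.31%, 0.578% and 0.242% by the exact interval, a limit on cells with a UMI at this depth and not on cells that express the gene. It was higher than in the other classes in NK cell-like cells (log2 fold change 8.71 ± 0.51, where 2.62% of genes were higher and 0.0186% lower) and in T cell-like cells (5.66 ± 0.58, where 2.64% were). Both values depend on the prior count, and both calls were kept under each alternative in which they could be tested. Ctsw passed the filter on low counts only through its NK cell-like and T cell-like sums. These tests are thus not separate support for higher levels there. Without tumor 1 there was no NK cell-like sum and Ctsw was too low to be tested.

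Ctsl was low in lymphocytes. It was at 17.1, 0 and 112 CPM in T cell-like cells (15 UMIs in all) and 14.5 and 0 CPM in B cell-like cells (14 UMIs). Both were lower than the other classes (log2 fold changes -2.89 ± 0.78 and -3.36 ± 0.91), where 0.0558% of genes were lower in either class. Both calls were lost without tumor 1 and without tumor 2. B cell-like cells had Ctsh at 249 and 270.1 CPM, the third class for this gene (log2 fold change 1.73, adjusted p = 0.104; 1.67 and 0.011 with the tumor as a block). With the block, Ctsb (-2.80) and Ctsd (-2.32) were also lower in B cell-like cells, Ctsb (-1.76) and Ctsh (-2.63) in T cell-like cells, Ctsl (-3.92) in NK cell-like cells and Ctsz (-2.84) in erythroid-like cells, and Ctsh (1.31) was higher in CAF-like cells. Over the 10758 genes, the block gave 51, 50, 15 and 112 lower in B cell-like, T cell-like, NK cell-like and erythroid-like cells. It gave 492 higher in B cell-like and 1801 higher in CAF-like cells. NK cell-like cells had Ctsd at 674 CPM (log2 fold change 1.70, adjusted p = 0.244) in 1 sum. In plasma cell-like and erythroid-like cells 0 members passed the edgeR test either way, where 2.9% and 0.381% of genes were higher and 0.0093% and 0.139% lower. At an unadjusted p under 0.05 there were 814 and 380 higher and 203 and 1355 lower genes. DESeq2 called 0 members in both classes, and limma on the corrected counts called 1, Ctsc, lower in erythroid-like cells.

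Tumor-like cells, named from 8 sympathoadrenal markers, had 6 of 10 cathepsins below the other classes, where 6.21% of genes were lower. The median log2 fold change of the members was -2.30, or -1.95 without Ctsw, which had 0 UMIs there, against 0.23 over all genes. The 6 were Ctss (-3.96 ± 0.98), Ctsh (-3.95 ± 0.71), Ctsc (-3.54 ± 0.81), Ctsb (-2.64 ± 0.77), Ctsa (-1.95 ± 0.59) and Ctsd (-1.91 ± 0.53). Ctsl (-1.32, adjusted p = 0.081) and Ctsz (-1.22, adjusted p = 0.073) missed the threshold. Without tumor 1 the count of lower members was 1 (Ctsd), with no share over all genes given here. The split of calls in this class depended on the scaling, since edgeR called 2314 genes higher and 668 lower with TMM factors, and DESeq2 with its own size factors called 384 and 2399, with a median of -0.53 over all genes and all 10 members lower. Ctsz was at 77.4, 125 and 105 CPM in tumor-like cells and made up 21.0%, 33.9% and 26.2% of their cathepsin UMIs, against 13.3%, 6.21% and 11.4% in macrophage-like cells. Of the 20 hydrolases 9 were lower and 0 higher (median -1.75), and the endosomal aspartic protease Ctse was lower (-6.19).

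Ctsd was also examined as free RNA, since RNA released during dissociation is captured in droplets of every class. A single macrophage source would give Ctsd and Ctss in 1 fixed ratio in all classes of a tumor. Scaled by Ctss, that source would give tumor-like cells 13.2, 12.97 and 15.5 CPM of Ctsd in tumors 1, 2 and 3. The measured values were 86.2, 76.9 and 90.0 CPM, which is 6.51, 5.93 and 5.79 times as high. The Ctss guide in these cells was only 7, 5 and 30 UMIs, so the multiples are rough. With Lyz2, a lysozyme of macrophages and neutrophils, as the guide the multiples were 9.39, 5.0 and 3.50, and with the 8 macrophage markers they were 5.68, 3.50 and 7.04. With the ratio of Apoe+-like cells, which hold more Ctsd per Ctss, they were 2.68, 3.79 and 3.64.

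In neutrophil-like cells the multiples by Ctss were 5.94, 6.04 and 5.94, and 2.44, 3.87 and 3.73 with the Apoe+-like ratio. By Lyz2 they were 3.19, 0.41 and 3.78. The Ctss guide was 122, 2 and 3 UMIs in these cells, so the closeness of the values by Ctss is not a measure of precision. The NK cell-like cells of tumor 1, with 7 Ctss UMIs, had 19.4 times the level given by Ctss. T cell-like cells had 1.04, 0.288 and 1.91 times it, the last from 3 Ctsd UMIs and 1 Ctss UMI, and B cell-like cells lay below it at 0.314 and 0.144. Measured Ctsd in tumor-like and neutrophil-like cells was thus above what a macrophage source scaled by Ctss gives in all 3 tumors. These are point values from few Ctss UMIs in most sums, given without intervals. Whether the remainder was made by those cells or came from another source of free RNA was not tested.

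**Figure D5:**
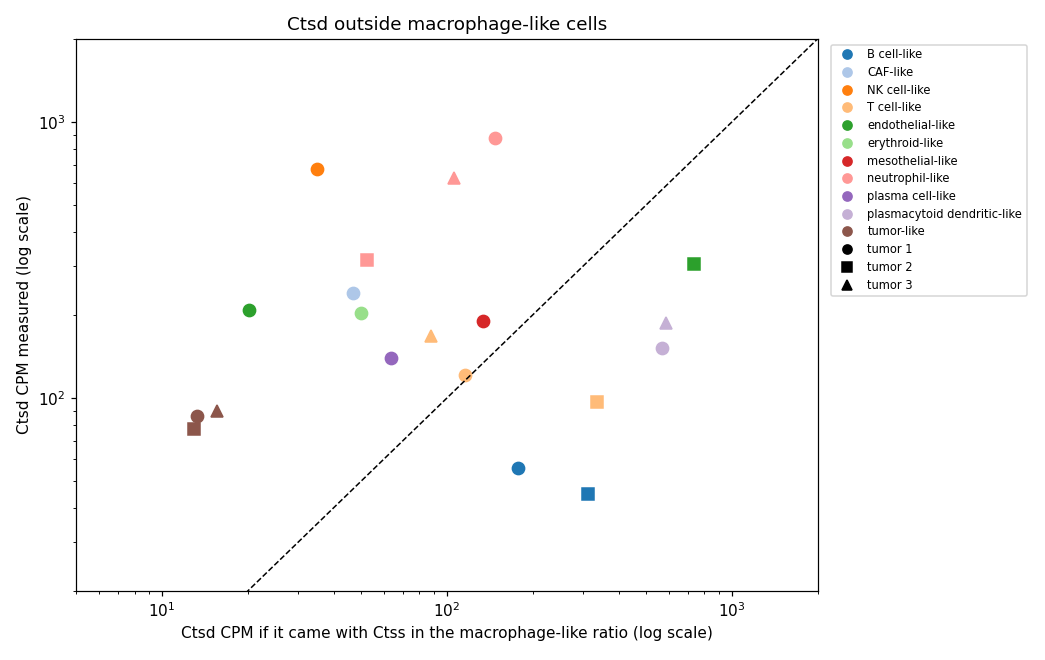
Measured Ctsd against the Ctsd that would accompany Ctss in the macrophage-like ratio of the same tumor (both in CPM, log axes), with 1 symbol per class and tumor and the dashed line at equality. Sums with 0 Ctss UMIs cannot be placed. Neutrophil-like and tumor-like cells lie above the line in all 3 tumors, and plasmacytoid dendritic-like and B cell-like cells lie below it.

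The other members differed in this respect. By Ctss, from the same 7, 5 and 30 UMIs, the multiples in tumor-like cells were 21.0, 40.2 and 24.5 for Ctsl. For Ctsz they were 6.57, 45.5 and 11.4. For Ctsc they were 1.64, 1.79 and 1.60 and for Ctsh 2.31, 2.01 and 1.27, so these had the nearest to the macrophage ratio. In the corrected counts of the authors, Ctsd was at 213, 69.9 and 122 CPM in tumor-like, 1039, 334 and 833 CPM in neutrophil-like and 1346, 5585 and 2986 CPM in macrophage-like cells, the same order in all 3 tumors.

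The genes most like each member were sought over the 27 sums among 7154 genes with at least 50 CPM in some class, by Pearson's r of log2(CPM + 1). The sums share tumors, and depth differs between them, so r is a description only. Ctsa was most like Lgmn (r = 0.935) and Grn (0.922), and Ctsb was most like Ncoa4 (0.907), Creg1 (0.901) and Hexa (0.898). Ctss was most like Laptm5 (0.921) and Cd53 (0.857), Ctsh most like the endosomal chaperone gene Unc93b1 (0.903) and Ctsz most like Cst3 (0.897). Ctsk was most like Htra3 (0.900), Myh11 (0.864) and Ccl11 (0.851), and Ctsw was most like Nkg7 (0.835) and Il2rb (0.827). Ctsc was most like Slc50a1 (0.836), and Ctsd (Tgfbi, 0.795) and Ctsl (Tcf7l2, 0.783) had the lowest leading values.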

How the data were processed

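Whole fresh tumors were profiled by single-cell RNA-seq, 1 library per mouse. The authors aligned reads to mm10 and deposited raw UMI counts of all barcodes (Cell Ranger 3.1.0, per the submitters' processing notes) and, for the cells they kept, normalized values (Seurat 3.1.5). The deposited normalized values were on a natural log scale: subtracting 1 from their exponential gave corrected counts within 1e-06 of a whole number for every nonzero value.

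Here, raw counts of kept cells were integrated across tumors (Seurat 5.3.0, 2000 variable genes, 30 dimensions, resolution 1). Clusters were named "-like" from at least 3 fixed markers with a fold of at least 2, and a cell kept its name with UMIs of at least 2 of them. No doublet caller was run. The members and lists were chosen with earlier results of these data known. Counts were summed per tumor and class (at least 10 cells) and tested with edgeR 4.0.16 (quasi-likelihood, TMM, filterByExpr, R 4.3.3), each class against the unweighted mean of the others, with Benjamini-Hochberg adjustment over all genes tested and a threshold of 0.05. DESeq2 1.42.0 and limma 3.58.1 (on the corrected counts) were alternatives, and fits were tested on simulated data. For macrophage-like cells against the other classes, 12.5% of simulated 2-fold and 56.8% of 4-fold changes were recovered. For neutrophil-like against macrophage-like cells the shares were 0% and 14.0%, and for Apoe+-like cells against the other subsets 20.8% and 80.9%. A missed threshold is thus not a sign of equal levels. The named genes were all members, the 3 genes most like each by Pearson's r and up to 4 called genes per pathway list with at least 50 CPM; some genes that met this rule are not reported here. Classes of 1 tumor come from the same mouse, so the tumor number pairs them. Deviations from class means correlated within tumors at 0.277 to 0.625 (3 pairs, neutrophil-like with macrophage-like), at 0.172 to 0.665 between macrophage subsets (9 pairs) and at -0.0191 to 0.642 between classes (45 pairs). Levels are CPM of raw UMIs, whose depth was 12628163, 2740537 and 5215401 UMIs in kept cells of tumors 1, 2 and 3. Coordinates are those of GENCODE M21, which held 98.1% of the 31053 gene symbols.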

Additional observations from a re-analysis of the deposited data

Results flagged for a closer look

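Cathepsin RNA was also measured in the barcodes that the authors did not keep, which the comparisons between classes leave out. Levels there are CPM of the non-mitochondrial UMIs, since the median mitochondrial share of removed barcodes was 27.9%, 35.0% and 37.7% in tumors 1, 2 and 3. Ctsl was at 734, 247 and 184 CPM in the removed barcodes of tumors 1, 2 and 3, which was 1.78, 0.896 and 1.33 times its level in the kept cells. Ctsd was at 764, 227 and 472 CPM (0.964, 0.282 and 1.41 times the kept level), and Ctsb was at 1189, 148 and 423 CPM (0.649, 0.147 and 0.865 times). Ctss, by comparison, was at 0.216, 0.0458 and 0.374 times its kept level. In each tumor the ratio of removed to kept barcodes was thus higher for Ctsl, Ctsd and Ctsb than for Ctss. The same held for Ctsa, Ctsc, Ctsk and Ctsz, so it was not particular to Ctsl, Ctsd and Ctsb. Ctsh was below Ctss in tumor 3, and Ctsw was below it in tumors 2 and 3. In the removed barcodes of tumor 2, Ctsz was at 347 CPM, above Ctsl, Ctsd and Ctsb. There were no control samples, and which cells the removed barcodes held was not tested.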

How the results depend on the processing

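Of 46 calls of a cathepsin in a class or subset, 4 were kept under every alternative in which they could be tested (Ctsb in macrophage-like, Ctsk in CAF-like, and Ctsw in NK cell-like and T cell-like cells), and 0 were reversed. Ctsk and Ctsw passed the filter on low counts only through the classes named, so the keeping of these calls is not separate support. Without tumor 1, 43 of the calls could be tested, since NK cell-like and mesothelial-like cells then had no sum and Ctsw was filtered out. All 46 were kept with the tumor as a replicate block, 42 with DESeq2 and 8 with limma on the corrected counts of the authors. Shares over all genes are not given here for limma, for fits without 1 tumor or for other filters and clusterings. The member counts of those fits thus cannot be set against all genes. With limma on corrected counts, the members higher fell from 8 to 1 in macrophage-like, from 1 to 0 in neutrophil-like, from 13 to 3 in the remaining classes and from 8 to 0 in Apoe+-like cells. The members lower went from 0 to 1 in neutrophil-like, 6 to 0 in tumor-like, 2 to 1 in the remaining classes and 4 to 0 in Pecam1+-like cells. With the replicate block the members lower rose from 2 to 8 in the remaining classes, 4 to 7 in neutrophil-like against macrophage-like, 0 to 2 in Ccr2+-like and 4 to 7 in Pecam1+-like cells. DESeq2 gave 10 lower in tumor-like and 2 in Ccr2+-like cells. With no filter on low counts, 5 were lower in the remaining classes, 4 higher in Apoe+-like and 2 lower in Ccr2+-like cells. Leaving out 1 tumor at a time gave 0 to 1 lower in neutrophil-like, 1 to 4 lower in tumor-like, 0 to 2 lower in the remaining classes, 0 to 8 lower in neutrophil-like against macrophage-like, 3 to 7 higher in Apoe+-like and 0 to 5 lower in Pecam1+-like cells. Clustering at resolution 1.5 gave 0 lower in tumor-like and 0 in the remaining classes, sums of at least 20 cells gave 2 and 0, and no integration gave 0 in the remaining classes. Subclustering at resolution 0.3 gave 5 higher in Apoe+-like and 2 lower in Ccr2+-like cells, and at 0.8 it gave 2 lower in Pecam1+-like cells. Alternatives chosen after seeing the data were library totals without TMM factors (1 lower in Ccr2+-like cells), no marker rule per cell, and other guides for free RNA. The median multiple of Ctsd in tumor-like cells went from 5.93 to 5.0 with Lyz2 and to 3.64 with the Apoe+-like ratio. The cause of these changes was not tested. Over all genes, edgeR and DESeq2 called 1463 and 557 higher in macrophage-like, 2314 and 384 higher and 668 and 2399 lower in tumor-like, 717 and 210 higher in plasmacytoid dendritic-like, 1520 and 651 in CAF-like, 1241 and 771 in endothelial-like, 1125 and 249 in mesothelial-like, 282 and 30 in NK cell-like, 284 and 58 in T cell-like and 312 and 174 in plasma cell-like cells (170 higher and 42 lower without TMM factors). With the block, 50 and 51 genes were lower in T cell-like and B cell-like cells against 6 in each, 388 higher in Apoe+-like against 213, 268 lower in Pecam1+-like against 90 and 116 lower in Ccr2+-like cells against 17. Classes with sums from 1 or 2 tumors (mesothelial-like, NK cell-like, plasma cell-like, B cell-like, CAF-like and plasmacytoid dendritic-like) borrow their spread from the other classes.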
